A study of Mus musculus with 20 samples.

Results

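The members are 10 genes of the integrated stress response in the mouse ileum, out of 35204 genes in the table of estimated counts. They are Chac1, 4 enzymes of asparagine and serine synthesis (Asns, Phgdh, Psat1 and Psph), the transcription factors Atf4, Atf5 and Ddit3, and the feedback regulators Trib3 and Sesn2. The set was chosen by name, with earlier results of these same mice known, and because Chac1 varied widely between mice, so its levels and fold changes are given as a description, and nothing is read from whether a member passed a threshold. All 10 were among the 16306 genes with enough reads to be fitted (0.5 CPM, counts scaled to a common library size, in 1 mouse or more). The other genes of the pathway were read from 9 lists with 88 genes, of which 87 were fitted. These are given with their tests, but the lists too were drawn up with earlier results of these mice known, so their counts are not independent evidence.

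RNA came from whole ileal tissue of female C57Bl6 mice, 1 mouse per library and 5 mice per group. The study's methods describe mice of 7 weeks being put on the diets, with tissue taken at the end of feeding. SPF mice (specific pathogen free, with an intact microbiota) ate a control amino acid diet (CD group) or the same diet without tryptophan, the tryptophan-deficient diet (TDD group), for 3 weeks. The CD+ABX and TDD+ABX groups ate the same diets while drinking ampicillin, vancomycin, gentamycin, metronidazole and neomycin, which were started before the deficient diet to deplete the microbiota. The study asked how dietary tryptophan acts on the ileum with and without the microbiota, so diets are compared within SPF mice and within ABX-treated mice, and antibiotics within each diet.

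The integrated stress response is the way a cell answers a shortage of amino acids and several other stresses. The kinase GCN2 senses uncharged transfer RNA and phosphorylates the initiation factor eIF2, most protein synthesis slows, and the mRNA of the transcription factor ATF4 is translated more. ATF4 then switches on genes for amino acid synthesis, uptake and tRNA charging, as well as Chac1, whose product breaks down glutathione inside the cell. Since ATF4 is governed largely at translation, its own mRNA level is an incomplete readout of the pathway.

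The libraries held between 36676963 and 58662617 estimated counts, and no pair of libraries within a group was a duplicate. Pairs between groups were not checked for this. CD mouse 2 was the least like its group, with a median correlation of 0.9812 against 0.9851 to 0.9904 for the other CD mice. Its summed enterocyte markers were at 6396 CPM (9312 to 11133 in the other CD mice). Its summed smooth muscle markers were at 1651 CPM (283 to 1009). Enterocyte markers were high in all 20 mice (Vil1 between 2490 and 5129 CPM), but the genes that define the distal ileum were scarce in SPF mice. Fabp6, the ileal bile acid binding protein, was between 0.238 and 3.91 CPM in the 10 SPF mice and between 2.65 and 144 CPM in the 10 ABX-treated mice. Slc10a2, the ileal bile acid transporter, was between 1.38 and 8.80 CPM in SPF mice and between 13.2 and 86.0 CPM in ABX-treated mice. Gata4 and Lct, genes of the more proximal small intestine, were looked up after these values were seen. Across the 20 mice Gata4 was between 75.0 and 118 CPM and Lct between 1469 and 3123 CPM. The study describes the tissue as terminal ileum, and the position of the segment was not tested. The summed level of 5 B cell markers was between 57.9 and 130 CPM in 2 CD, 4 TDD and 1 TDD+ABX mice and at most 20.6 CPM in the other 13. In whole tissue, fewer cells of a type and less RNA per cell cannot be told apart.

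ATF4 acts at a composite element whose core is often written TGATGNAA. The letters TGATGNAA were searched on both strands in the 250 bases before each RefSeq gene start (GRCm38.p6), and no other motif was searched. They occurred before 2 of the 10 genes, Chac1 and Asns, and in 1134 of all 32851 windows (3.45%). Of the other pathway genes with a window, 12 of 69 held a match. Both stretches are shown because they are the members that hold the letters, with the match in capitals. The Chac1 stretch, chr2:119350992-119351228 on the plus strand, reads up to the base before the annotated transcript and holds the match on the opposite strand. The Asns stretch, chr6:7693214-7693243 on the minus strand, lies before the RefSeq start but within the first exon of the longer GENCODE transcript. A match describes the letters only and is not evidence of binding.
Chac1: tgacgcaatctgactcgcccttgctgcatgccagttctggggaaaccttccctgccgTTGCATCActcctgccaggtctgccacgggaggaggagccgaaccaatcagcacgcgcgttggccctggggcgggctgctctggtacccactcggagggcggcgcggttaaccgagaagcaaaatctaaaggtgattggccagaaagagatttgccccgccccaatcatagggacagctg
Asns: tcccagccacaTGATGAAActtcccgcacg

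Chac1 (chr2:119351229-119354381), a single annotated transcript, was the member with the widest range. In CD mice it was at 1.93, 2.40, 0.738, 0.619 and 0.694 CPM, and in TDD mice at 0.351, 0.275, 0.518, 0.248 and 0.425 CPM. Every TDD mouse lay below every CD mouse, but the gap was narrow. TDD mice 3 and 5 held 25 estimated counts each and CD mouse 4 held 27. CD mice 1 and 2 stood above the other CD mice. ABX-treated mice on the control diet were at 0.617, 0.743, 0.696, 0.778 and 1.87 CPM, close to the lower CD mice apart from mouse 5. In TDD+ABX mice Chac1 was at 5.47, 2.54, 22.8, 9.13 and 4.499 CPM, every one above all of the other 15 mice, and mouse 3 was 8.99 times mouse 2.

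The group means were 1.27 ± 0.827 CPM in CD, 0.363 ± 0.111 in TDD, 0.940 ± 0.521 in CD+ABX and 8.90 ± 8.15 in TDD+ABX (SD, n = 5 each). On the log2 scale the deficient diet went with a difference of -1.78 (SE 0.58) in SPF mice and of 3.23 (SE 0.54) in ABX-treated mice. These values correspond to a level 3.43-fold lower with TDD feeding in SPF mice and 9.39-fold higher in ABX-treated mice. The difference between the diet effects was 5.01 (SE 0.79). Antibiotics went with a log2 difference of -0.42 (SE 0.53) on the control diet, where the groups overlapped, and of 4.59 (SE 0.60) on the deficient diet. In order, TDD was lowest, CD+ABX and CD lay next to each other with overlapping mice, and TDD+ABX was highest.

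A single mouse carried part of the size of the TDD+ABX level. Without TDD+ABX mouse 3 the log2 difference between diets in ABX-treated mice was 2.51, that between TDD+ABX and TDD was 3.88 and the difference of diet effects was 4.29. Leaving out any 1 of the 20 mice kept the SPF diet difference between -1.95 and -1.42. The low values rest on few reads, with 9 to 25 estimated counts per TDD mouse and 27 to 103 per CD mouse. TDD+ABX mice held 127 to 1105. The ileal marker Slc10a2 overlapped between diets in ABX-treated mice, with 16.6 to 86.0 CPM in CD+ABX and 13.2 to 58.3 CPM in TDD+ABX. In SPF mice the diets overlapped only narrowly, with 1.38 to 3.88 CPM in CD (median 2.44) and 3.69 to 8.80 CPM in TDD (median 5.94). Between TDD and TDD+ABX it did not overlap. The part of Slc10a2 in these Chac1 differences was not tested.

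**Figure D1:**
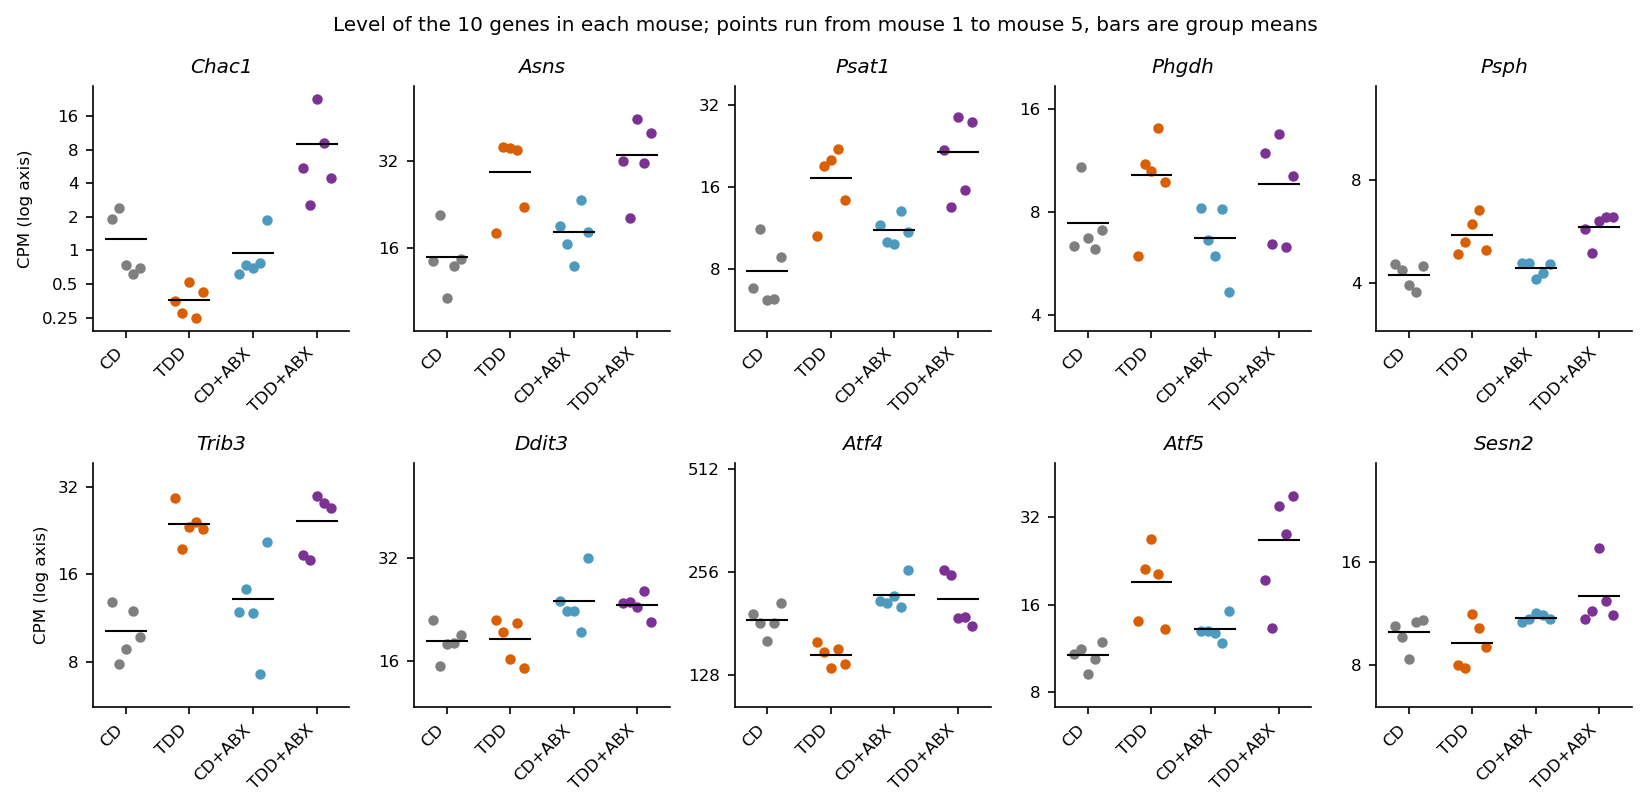
CPM of the 10 genes in each mouse on a log axis, by group, with points from mouse 1 to mouse 5 and a bar at the group mean. Chac1 lies between 0.248 and 0.518 CPM in TDD mice and between 2.54 and 22.8 CPM in TDD+ABX mice, while most of the other genes differ by diet in the same direction in SPF and ABX-treated mice.

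The biosynthetic enzymes did not share the Chac1 pattern. Asns (chr6:7675169-7693254), which makes asparagine, was at 14.4, 20.8, 10.8, 13.9 and 14.7 CPM in CD mice and 18.1, 35.8, 35.3, 35.0 and 22.2 CPM in TDD mice. The pair of groups overlapped through CD mouse 2 and TDD mouse 1. In ABX-treated mice Asns was at 19.1, 16.5, 13.8, 23.4 and 18.1 CPM on the control diet and at 31.9, 20.3, 44.6, 31.4 and 39.9 CPM on the deficient diet, where only mouse 2 fell within the control range. The log2 difference between diets was 0.97 (SE 0.22) in SPF mice and 0.88 (SE 0.22) in ABX-treated mice, against 0.29 (SE 0.22) for antibiotics on the control diet.

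Serine is made in 3 steps from a glycolytic intermediate by PHGDH, PSAT1 and PSPH. Psat1 (chr19:15904678-15947337) was at 6.83, 11.3, 6.18, 6.24 and 8.86 CPM in CD mice and at 10.6, 19.0, 20.1, 22.1 and 14.3 CPM in TDD mice. In CD+ABX it was at 11.6, 10.02, 9.89, 13.1 and 10.95 CPM, and in TDD+ABX at 21.9, 13.5, 28.8, 15.6 and 27.5 CPM, with no overlap between diets. Its log2 difference between diets was 1.13 (SE 0.23) in SPF mice and 0.95 (SE 0.22) in ABX-treated mice.

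Phgdh (chr3:98313170-98339990), the first step, was more scattered. It ranged from 6.24 to 10.8 CPM in CD, 5.97 to 14.1 in TDD, 4.68 to 8.20 in CD+ABX and 6.33 to 13.5 in TDD+ABX, so the diets overlapped in both settings. Its log2 differences were 0.47 (SE 0.24) in SPF and 0.53 (SE 0.24) in ABX-treated mice. Psph (chr5:129765558-129787449), the last step, differed less but with tight groups: 3.76 to 4.54 CPM in CD against 4.87 to 6.55 in TDD, and 4.11 to 4.58 in CD+ABX against 4.90 to 6.25 in TDD+ABX. Neither pair of diets overlapped for Psph, and the log2 differences were 0.39 (SE 0.10) and 0.40 (SE 0.10).

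The count of Psat1 was divided among its annotated transcripts in unequal ways. Of its 7 transcripts, ENSMUST00000162053.7 took a mean of 8.55% of the estimated counts in CD mice (0 to 25.3%) and 30.3% in TDD mice (18.3 to 47.4%). In ABX-treated mice its mean share was 13.9% on the control diet and 20.6% on the deficient diet, with overlapping ranges. These shares come from the assignment of short reads to overlapping transcripts and from a gene of 6.18 to 28.8 CPM, so they are imprecise. By contrast, 1 transcript held at least 91.04% of the Asns count in every mouse.

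Trib3 (chr2:152337422-152344032) encodes a pseudokinase that ATF4 induces and that holds ATF4 back. It was at 12.9, 7.86, 8.87, 11.9 and 9.72 CPM in CD mice and at 29.4, 19.5, 23.3, 24.2 and 22.9 CPM in TDD mice, which did not overlap. In CD+ABX it was at 11.8, 14.2, 11.7, 7.26 and 20.6 CPM and in TDD+ABX at 18.6, 17.9, 29.8, 28.1 and 27.1 CPM. Here CD+ABX mouse 5, also the highest of its group for Chac1, reached into the range of the deficient diet. The log2 difference between diets was 1.22 (SE 0.22) in SPF mice and 0.89 (SE 0.22) in ABX-treated mice.

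Sesn2 (chr4:132492032-132510501), a leucine-binding inhibitor of mTORC1, differed little. It ranged from 8.32 to 10.8 CPM in CD, 7.81 to 11.3 in TDD, 10.6 to 11.3 in CD+ABX and 10.9 to 17.6 in TDD+ABX. TDD+ABX mouse 3, the highest for Chac1, gave the 17.6 CPM, and the other 4 mice of that group were at most at 12.3 CPM. Its log2 difference between diets was -0.10 (SE 0.12) in SPF mice and 0.21 (SE 0.12) in ABX-treated mice.

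Atf5 (chr7:44812256-44816658), a factor that like ATF4 is controlled at translation, was at 10.8, 11.2, 9.19, 10.4 and 11.9 CPM in CD mice and at 14.0, 21.2, 26.9, 20.3 and 13.1 CPM in TDD mice. All TDD mice lay above all CD mice. In ABX-treated mice it was at 13.0, 13.0, 12.8, 11.8 and 15.2 CPM on the control diet and 19.5, 13.3, 34.9, 28.0 and 38.1 CPM on the deficient diet, where mouse 2 lay within the control range. The log2 difference was 0.84 (SE 0.23) in SPF mice and 1.02 (SE 0.23) in ABX-treated mice.

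Atf4 itself (chr15:80255184-80257541) was the most abundant member and went the other way. It was at 194, 182, 161, 183 and 209 CPM in CD mice and at 160, 150, 134, 153 and 138 CPM in TDD mice, with every TDD mouse below every CD mouse. In CD+ABX it was at 211, 208, 218, 203 and 261 CPM and in TDD+ABX at 260, 251, 188, 189 and 179 CPM. TDD+ABX mice 1 and 2, the highest for Atf4, were not the highest for any of Chac1, Asns, Psat1, Atf5, Trib3 or Sesn2. The log2 difference between diets was -0.34 (SE 0.10) in SPF mice and -0.04 (SE 0.10) in ABX-treated mice, and TDD+ABX lay above TDD by 0.54 (SE 0.10) with no overlap.

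Ddit3 (chr10:127290774-127296288), which encodes CHOP, a factor linked to death under prolonged stress, hardly differed by diet. It ranged from 15.5 to 21.04 CPM in CD, 15.2 to 21.1 in TDD, 19.5 to 31.9 in CD+ABX and 20.8 to 25.6 in TDD+ABX. The log2 difference between diets was 0.02 (SE 0.12) in SPF mice and -0.04 (SE 0.12) in ABX-treated mice. Antibiotics went with 0.39 (SE 0.12) on the control diet and 0.34 (SE 0.12) on the deficient diet.

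**Figure D2:**
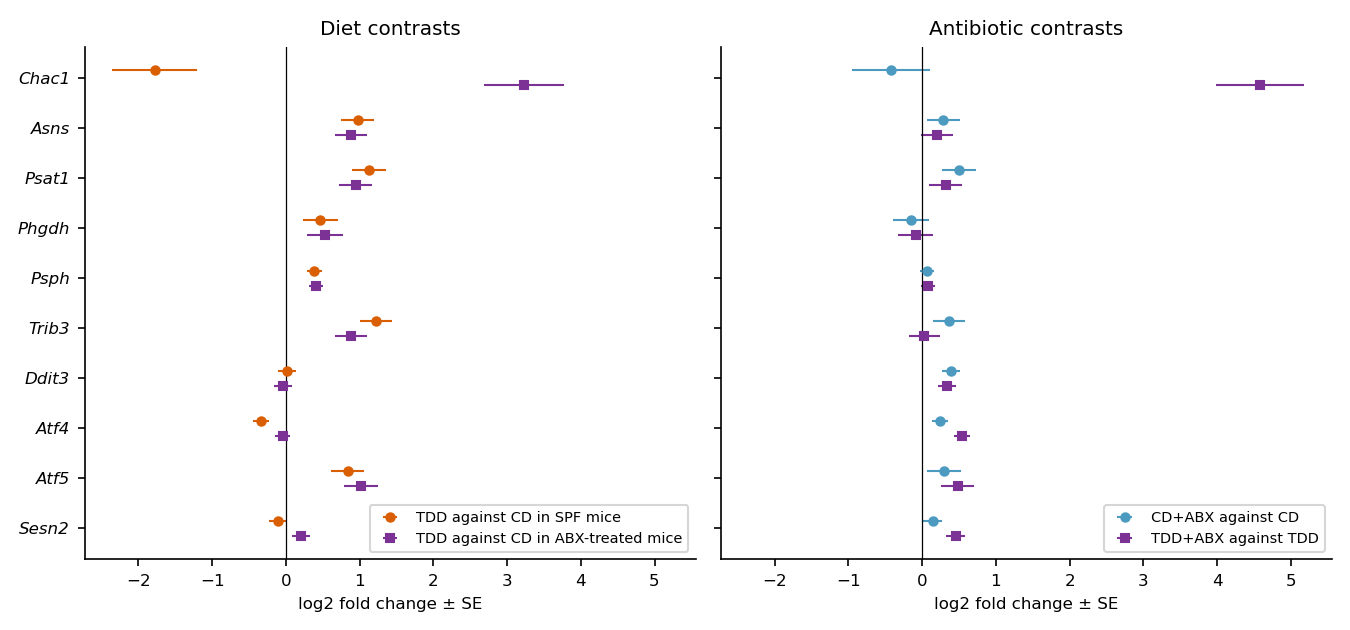
Log2 fold change with its standard error for each gene, for both diet contrasts (left) and both antibiotic contrasts (right). Chac1 alone lies on opposite sides of 0 by a distance of several standard errors, at -1.78 and 3.23, while Asns, Psat1, Phgdh, Psph, Trib3 and Atf5 lie between 0.39 and 1.22 in both diet contrasts.

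Counts over the 10 genes follow from how they were chosen and are given for scale, and nothing is read from them. At q under 0.05 (edgeR's quasi-likelihood test, Benjamini-Hochberg over all 16306 genes), 5 members were higher with TDD feeding in SPF mice (Asns, Psat1, Psph, Trib3 and Atf5), where 6.7% of all genes were higher, and 2 were lower (Chac1 and Atf4), where 7.73% were lower. In ABX-treated mice 6 members were higher (the same 5 and Chac1) against 0.681% of all genes, and 0 were lower against 1.08%. At a 2-fold change as well, 3 members passed in SPF mice against 1.84% of all genes and 2 in ABX-treated mice against 0.331%. The SPF count was 1 by limma on TPM. The ABX count ran from 1 to 4 with a mouse left out (4 without TDD+ABX mouse 2, and 1 when any of CD+ABX mice 1 to 4, TDD+ABX mouse 3 or its group mate 5 was dropped) and was 1 by limma-voom, with only the contrast's groups in the fit, with a replicate block and by limma on TPM. In the antibiotic contrasts 0 members passed on the control diet against 2.3% of all genes and 1 on the deficient diet against 1.67%, and 1, Chac1, passed for the interaction against 0.0245%. With 1 mouse left out at a time that interaction call held in 9 of 20 fits, and it was lost under another scaling, with a replicate block, under limma-voom and by limma on TPM.

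The median log2 difference over the 10 genes was 0.43 for diet in SPF mice, where that of all genes was 0.013, and 0.71 for diet with antibiotics, where that of all genes was -0.003. Diet groups did not overlap for 5 members in SPF mice, against 9.58% of all genes, and for 3 in ABX-treated mice, against 4.78%. TDD+ABX and TDD did not overlap for 2 members, Chac1 and Atf4, against 11% of all genes. The pairs of contrasts share mice, so their values stand side by side only.

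Levels can be compared between genes per transcript length, in TPM (the share of all transcripts after correction for length). In CD mice Atf4 was at 150 ± 13.1 TPM and Ddit3 at 33.1 ± 3.34 TPM, and the other members lay between 11.3 ± 3.35 TPM (Asns) and 1.11 ± 0.753 TPM (Chac1, the lowest; SD, n = 5). In TDD+ABX mice Atf4 was at 176 ± 25.5 TPM and Chac1 at 7.94 ± 7.36 TPM. There Chac1 lay between Phgdh (8.19 ± 3.26 TPM) and Psph (5.19 ± 0.755 TPM), and these 3 levels differed by less than the spread of Chac1 between mice.

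Mice of a group differed from each other in several members at a time. In TDD+ABX, mouse 3 was the highest for 6 of the 10 genes and mouse 2 the lowest for 6. In CD+ABX, mouse 5 was the highest for 5, namely Chac1, Trib3, Ddit3, Atf4 and Atf5. In TDD, mouse 1 was the lowest for 4, namely Asns, Psat1, Phgdh and Psph, yet the highest for Trib3, Ddit3 and Atf4. The B cell marker sum was 3.46 CPM in that TDD mouse and 59.4 to 130 CPM in the other 4. Several other marker sums were lowest in that mouse too, among them proliferating crypt 487 against 760 to 892 CPM, myeloid 73.5 against 114 to 153 and plasma cell 299 against 491 to 653. Its smooth muscle sum was the highest of the group, 1323 against 418 to 1032 CPM. Its enterocyte sum, 9503 CPM, lay within the range of the others, 8413 to 9804 CPM. The part of these sums in the low levels of that mouse was not tested. With the B cell sum as a covariate over all mice, the Chac1 log2 differences stayed within 1 pooled SD of the values above. The members past q under 0.05 and a 2-fold change for diet then went from 3 to 1 in SPF mice and from 2 to 1 in ABX-treated mice.

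**Figure D3:**
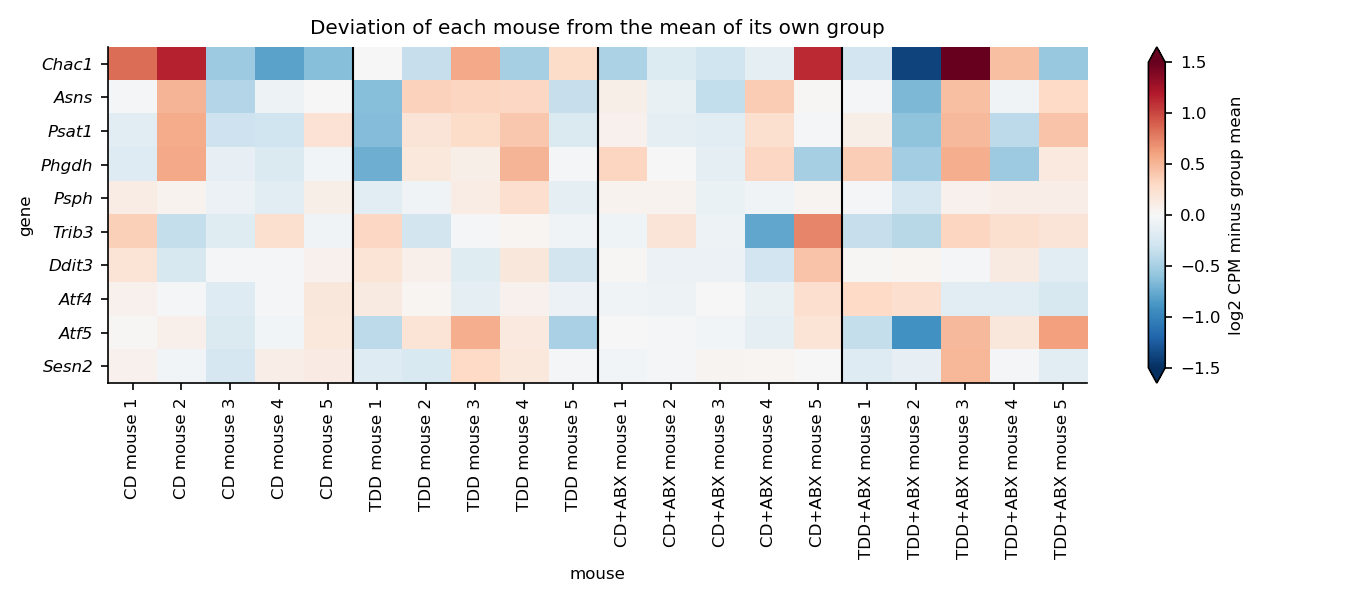
Deviation of each mouse from the mean of its own group, in log2 CPM, for the 10 genes, with colours saturating at the ends of the bar. In TDD+ABX mouse 3 is highest for 6 genes and mouse 2 lowest for 6, and the Chac1 row has the strongest colours.

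Over the 20 mice, the 5 genes whose level went most closely with Chac1 included 3 amino acid transporters. Likeness was Pearson's r of log2(CPM + 0.5), over 14047 genes with a mean of at least 1 CPM, as a description of mice that share 4 groups. Mthfd2, the mitochondrial folate enzyme, had r = 0.844, Desi2 0.835, the neutral amino acid transporter Slc1a4 0.804, the large neutral amino acid transporter Slc7a5 0.794 and the cationic amino acid transporter Slc7a1 0.784. Spearman's rho was between 0.537 (Slc7a5) and 0.740 (Desi2). Without the 2 mice farthest from the median Chac1 level, TDD+ABX mice 3 and 4, r was between 0.588 and 0.708.

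Likeness within groups was lower and differed among these 5 genes. For deviations from the group means, r with Chac1 was 0.612 for Mthfd2, 0.622 for Slc7a5, 0.586 for Slc1a4, 0.463 for Slc7a1 and 0.332 for Desi2. Spearman's rho of the same deviations was lower, at 0.417, 0.420, 0.456, 0.365 and 0.038 in that order. Of the members, Sesn2 had the highest r over all mice, 0.732 (rank 11), with Spearman's rho 0.647. For Atf5 r was 0.553 and rho 0.152, and for Atf4 r was 0.387 and rho 0.513. The order rests on the farthest mice, since without TDD+ABX mice 3 and 4 r was 0.434 for Sesn2, 0.230 for Atf5 and 0.600 for Atf4. For deviations within groups r was 0.547 for Sesn2, 0.491 for Atf5, 0.484 for Asns, 0.427 for Trib3, 0.406 for Psph and 0.392 for Psat1. It was 0.254 for Phgdh, 0.121 for Ddit3 and -0.213 for Atf4. Spearman's rho of these deviations ran from -0.147 (Atf4) to 0.439 (Asns). Of the 5 genes most like Chac1, the 4 that had a promoter window held no TGATGNAA match.

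**Figure D4:**
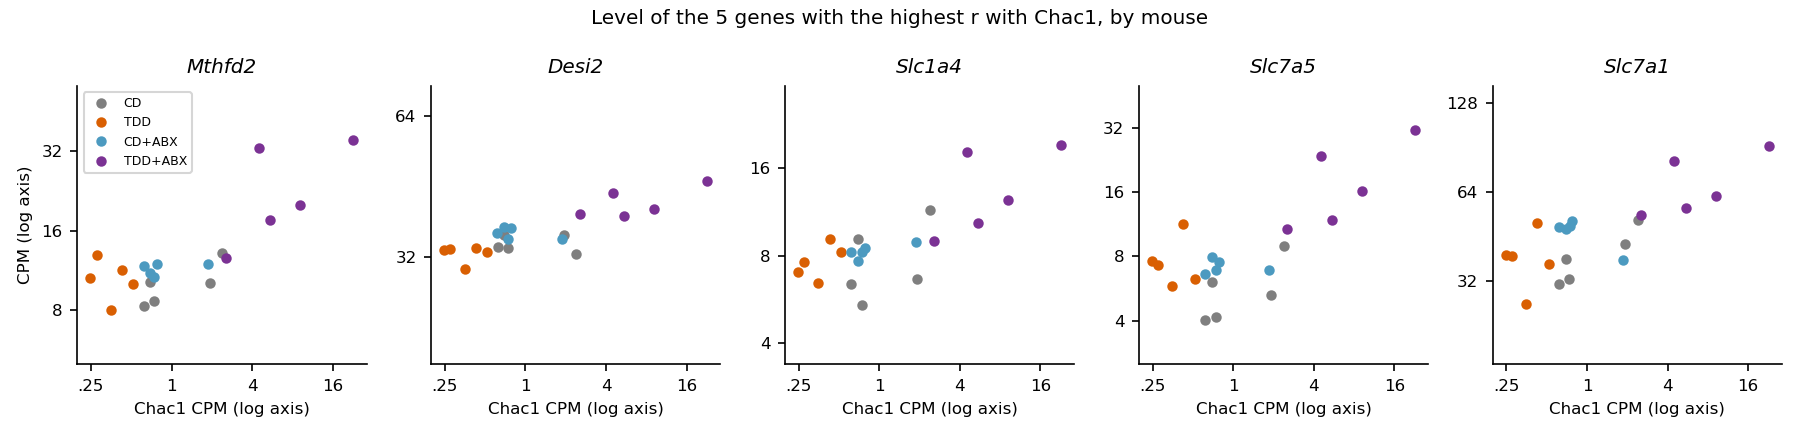
CPM of the 5 genes most like Chac1 against Chac1 in each of the 20 mice, both on log axes and coloured by group. TDD+ABX mice lie to the upper right in each panel, and Mthfd2 runs from 8.003 CPM in TDD mouse 1 to 35.2 CPM in TDD+ABX mouse 3.

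The other 87 genes of the pathway were tested in the same fit. With TDD feeding in SPF mice, 12 rose and 9 fell at q under 0.05, 24.1% of the lists against 14.4% of all genes, and 2 of these passed a 2-fold change. Aldh1l2, a mitochondrial folate dehydrogenase that ATF4 controls, was at 1.54 to 2.53 CPM in CD mice and 2.51, 7.19, 14.9, 11.9 and 6.90 CPM in TDD mice. It rose by 2.18 on the log2 scale (SE 0.36, edgeR q = 0.000528). Aldh18a1, which makes the proline precursor, was at 292 to 437 CPM in CD mice and 124 to 171 CPM in TDD mice and fell by 1.304 (SE 0.13, edgeR q = 1.12e-05). The 2 genes past a 2-fold change thus ran in opposite directions. Without CD mouse 2, 4 list genes passed both thresholds in this contrast.

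In ABX-treated mice 7 list genes rose and 2 fell with TDD feeding at q under 0.05, 10.3% of the lists against 1.76% of all genes, and 4 passed a 2-fold change. Slc7a5 was at 6.66 to 7.96 CPM in CD+ABX and at 11.8, 10.7, 31.4, 16.2 and 23.7 CPM in TDD+ABX, a log2 rise of 1.38 (SE 0.27, edgeR q = 0.0138). Mthfd2 was at 10.7 to 11.97 CPM in CD+ABX and at 17.6, 12.6, 35.2, 20.01 and 32.8 CPM in TDD+ABX, a log2 rise of 1.04 (SE 0.21, edgeR q = 0.0187). Neither gene's groups overlapped, and TDD+ABX mouse 3 was the highest for both, as it was for Chac1. Gdf15, a secreted stress factor, rose by 1.15 (SE 0.24, edgeR q = 0.0187) from a level at or below 0.791 CPM in every CD+ABX mouse. Slc7a5 passed both thresholds in all 9 alternative fits, Mthfd2 in 4 of them and Gdf15 in 7. With a replicate block the edgeR q was 0.0516 for Mthfd2 and 0.0535 for Gdf15. Without TDD+ABX mouse 3 the edgeR q was 0.0523 for Mthfd2 and 0.058 for Gdf15.

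Nupr1, a stress-induced chromatin protein and target of ATF4, fell by 1.01 (SE 0.17, edgeR q = 0.0069). It was at 25.7 to 48.3 CPM in CD+ABX and 14.2 to 18.9 CPM in TDD+ABX. In SPF mice it also fell, by 0.88 (SE 0.18, edgeR q = 0.00261). These counts depend on single mice: without TDD+ABX mouse 3, 4 list genes passed q under 0.05 and 2 passed both thresholds. Without CD+ABX mouse 3, 5 passed q under 0.05, without CD mouse 2, 14, and without CD+ABX mouse 4, 2 passed both thresholds.

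By role, the sensing and signalling genes came first. Of 14 eIF2 kinases, phosphatases and partners of GCN2, 1 rose and 0 fell in SPF mice (7.14%, against 14.4% of all genes). With antibiotics none passed the edgeR test in either direction, where 1.76% of all genes passed. An unadjusted edgeR p under 0.05 was reached there by 2 of the 14, and by 2415 of all 16306 genes. The gene that rose in SPF mice was Ppp1r15a, the feedback subunit that dephosphorylates eIF2, by 0.48 (SE 0.11, edgeR q = 0.00622). The GCN2 gene Eif2ak4, looked at after the values were seen, had log2 differences of 0.20 (SE 0.11) and 0.06 (SE 0.11). Of 5 partner factors, Jdp2 rose and Nupr1 fell in SPF mice, and Nupr1 fell in ABX-treated mice.

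Among 9 growth, death and translation brakes, Vldlr and Ero1l rose and Bbc3 and Tnfrsf10b fell in SPF mice. Eif4ebp1, the inhibitor of cap-dependent translation, rose in ABX-treated mice by 0.69 (SE 0.15, edgeR q = 0.0265), as did Xpot, which exports tRNA. Of 2 fitted secreted factors, 0 passed in SPF mice and Gdf15 in ABX-treated mice. Of 11 mitochondrial and amino acid enzymes, 2 passed in each setting, Aldh1l2 and Aldh18a1 in SPF mice and Mthfd2 and Shmt2 in ABX-treated mice. Ero1l, Tnfrsf10b, Xpot and Shmt2 are named after their values were seen, to complete the counts.

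The next genes bring amino acids in or load them on tRNA, and their counts stand against 14.4% of all genes for diet without antibiotics and 1.76% with them. Of 9 amino acid transporters, 0 passed in SPF mice and Slc7a5 alone rose in ABX-treated mice. Slc7a11, the cystine carrier that feeds glutathione synthesis, had log2 differences of 0.72 (SE 0.36) and 0.85 (SE 0.36) and passed in neither. Of 12 aminoacyl-tRNA synthetases, 3 fell in SPF mice (Cars, Yars and, named after its value was seen, Aars) and 0 passed in ABX-treated mice. Cars, for cysteine, was at 18.8 to 24.8 CPM in CD and 10.99 to 14.96 CPM in TDD mice and fell by 0.75 (SE 0.17, edgeR q = 0.0063).

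On the deficient diet, antibiotics went with higher levels of several tRNA synthetases. Between TDD+ABX and TDD, 26 list genes were higher and 0 lower at q under 0.05, 29.9% of the lists against 15.5% of all genes (between 19 and 38 list genes with a mouse left out, 19 without TDD+ABX mouse 3), with 3 past a 2-fold change (Mthfd2, Slc7a5 and Cars). Among them were 8 of the 12 tRNA synthetases, 4 of 9 glutathione genes, 4 of 14 eIF2 genes, 3 of 11 enzymes, 3 of 9 transporters and 4 of 16 unfolded protein response genes. Cars, at 10.99 to 14.96 CPM in TDD mice, was at 20.4, 18.6, 38.9, 30.2 and 40.2 CPM in TDD+ABX mice, higher by 1.21 (SE 0.17, edgeR q = 0.000407). Of the members, 3 passed q under 0.05 here (Chac1, Atf4 and Sesn2). Slc10a2 and 3 marker sums did not overlap between these groups either. The plasma cell sum was 299 to 653 CPM in TDD and 201 to 286 CPM in TDD+ABX, the enterocyte sum 8413 to 9804 and 11419 to 14516 CPM, and the T cell sum 24.3 to 35.6 and 14.1 to 23.2 CPM. Their part in the higher list genes was not tested.

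On the control diet antibiotics went with higher levels of chaperones, another arm of the stress response. Between CD+ABX and CD, 21 list genes were higher and 2 lower at q under 0.05, 26.4% of the lists against 12.8% of all genes, and 12 of the 21 belonged to the 16 genes of the XBP1 and ATF6 arms. Hspa5, the main chaperone of the endoplasmic reticulum, was at 404 to 542 CPM in CD and 923 to 1121 CPM in CD+ABX, higher by 1.05 (SE 0.13, edgeR q = 7.59e-05). Of the members only Ddit3 passed q under 0.05. A 2-fold change was passed by 4 list genes (Hspa5, Sdf2l1 and Anpep higher, Aldh18a1 lower), all between 1.03 and 1.09 in absolute log2 value, and 1 list gene passed without CD mouse 3 and 0 without CD+ABX mouse 5. Marker levels differed in this contrast as well. From CD to CD+ABX the enterocyte sum went from 6396 to 11133 CPM to 10968 to 18127 CPM, the plasma cell sum from 230 to 434 CPM to 159 to 263 CPM, the T cell sum from 25.2 to 76.4 CPM to 14.9 to 19.6 CPM, the myeloid sum from 147 to 193 CPM to 93.7 to 111 CPM and Slc10a2 from 1.38 to 3.88 CPM to 16.6 to 86.0 CPM. The last 3 did not overlap, and the part of any of them in the higher chaperones was not tested.

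Of the same 16 genes, 7 rose with diet in SPF mice, where 6.7% of all genes were higher, among them Herpud1 by 0.74 (SE 0.15, edgeR q = 0.00275) and Dnajb9 by 0.64 (SE 0.13, edgeR q = 0.00333), 1 fell (Ern1, named after its value was seen) and 8 did not pass. In ABX-treated mice 0 of the 16 passed. An unadjusted edgeR p under 0.05 was reached there by 5 of the 16, and by 2415 of all 16306 genes. The median log2 difference of the 16 was -0.18, against 0.28 in SPF mice. Plasma cells are rich in these chaperones, and the plasma cell sum was 230 to 434 CPM in CD and 299 to 653 CPM in TDD mice. Its part in these rises was not tested.

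Chac1 acts on glutathione, so the genes around it were listed as well. Of 9 genes for glutathione synthesis and breakdown, Ggct, a cyclotransferase for gamma-glutamyl amino acids, fell in SPF mice by 0.32 (SE 0.08, edgeR q = 0.0105) and in ABX-treated mice by 0.43 (SE 0.08, edgeR q = 0.00919). Gclc, the catalytic subunit of the first synthetic enzyme, was at 68.5 to 91.9 CPM in CD+ABX and 87.9 to 144 CPM in TDD+ABX and rose by 0.63 (SE 0.12, edgeR q = 0.00925). In SPF mice Gclc differed by 0.24 (SE 0.12, edgeR q = 0.17). Chac2, the relative of Chac1 whose product degrades glutathione more slowly, had log2 differences of 0.06 (SE 0.08) and 0.09 (SE 0.08). At q under 0.05, antibiotics went with 5 of the 9 genes higher on the control diet and 4 on the deficient diet. Of all genes, 12.8% and 15.5% passed in either direction.

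**Figure D5:**
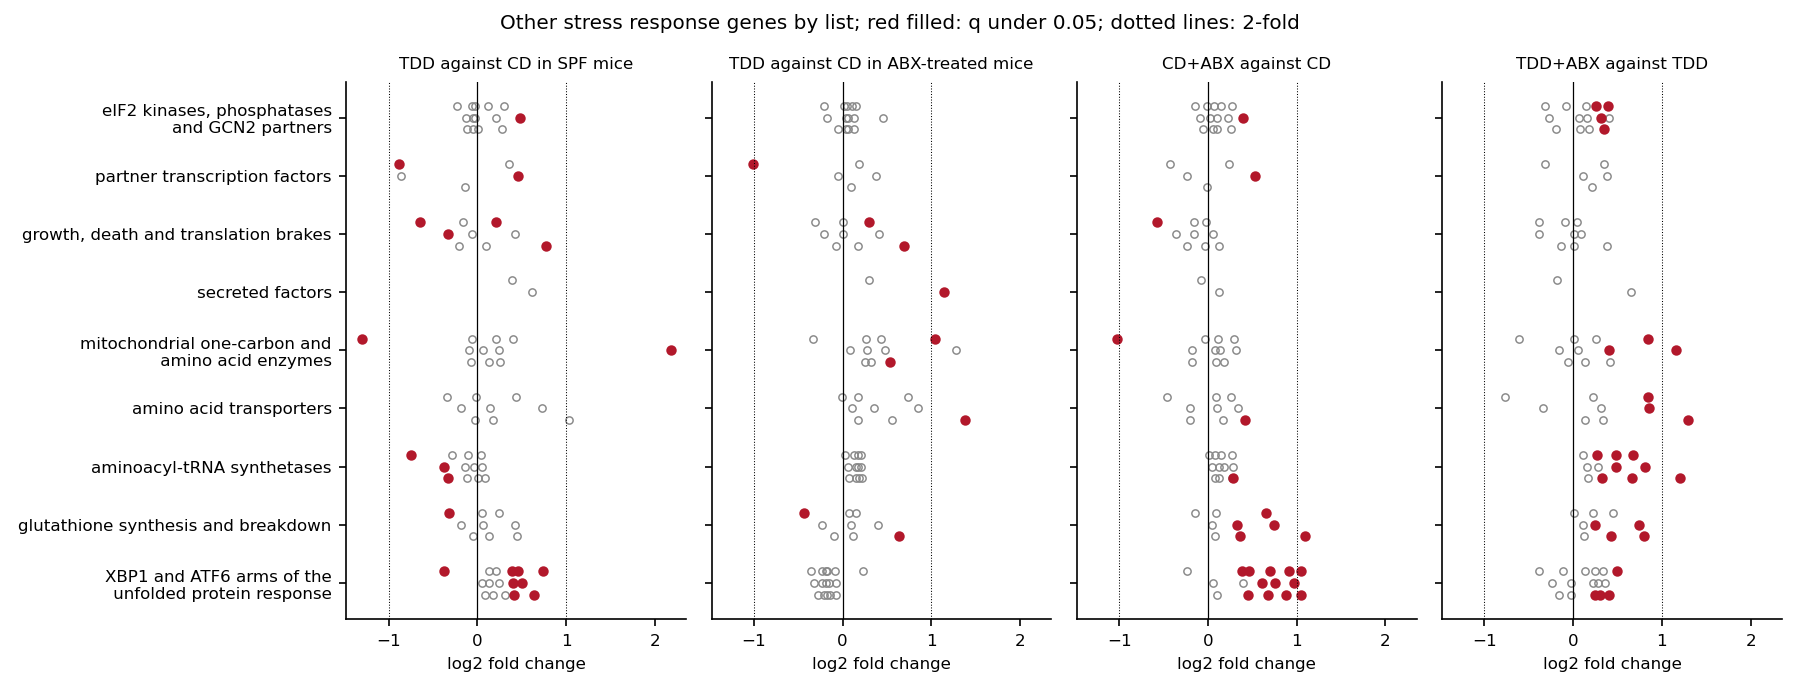
Log2 fold change of the 87 fitted pathway genes by list, for 4 contrasts, with q under 0.05 in red and 2-fold lines dotted. In SPF mice the red points of the tRNA synthetases lie below 0, and between TDD+ABX and TDD 8 of those 12 genes are red and above 0.

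Whether the diet effect depended on antibiotics was tested through the interaction. Of the 87 list genes, 0 passed q under 0.05 by edgeR's quasi-likelihood test and by limma-voom, 6 passed by DESeq2, and 32 had an unadjusted p under 0.05, as had 1452 of all 16306 genes. Of the 16 genes of the XBP1 and ATF6 arms, 13 were among these 32, with a median interaction of -0.475 over the 16. Of all 16306 genes, 6 passed q under 0.05 (0.0368%). Aldh18a1 came close, with an interaction of 0.97 (SE 0.18, edgeR q = 0.0625), and for Cars it was 0.93 (SE 0.24, edgeR q = 0.156), for Mthfd2 0.97 (SE 0.30, edgeR q = 0.281) and for Slc7a5 0.95 (SE 0.38, edgeR q = 0.438). A different response of these list genes in the 2 settings was therefore not shown by the main test, and the Chac1 value of 5.01 is a description. With 1 mouse left out at a time, between 0 and 2 list genes passed, 2 without CD mouse 2 or TDD+ABX mouse 2.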

How the data were processed

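Poly-A RNA of 20 ileal samples was sequenced by the authors and quantified with kallisto 0.44.0 on the mouse transcriptome (GRCm38), per the labels. The deposited gene table holds the authors' estimated counts, which were rounded, and deposited files per mouse hold estimated counts and TPM per transcript, which were summed per gene. Totals lay between 36676963 and 58662617 counts. The 16306 genes reaching 0.5 CPM in 1 mouse or more entered 1 fit of the 4 groups with edgeR 4.0.16 (TMM scaling, quasi-likelihood test, Benjamini-Hochberg). Calls needed q under 0.05 and, where stated, a 2-fold change, the thresholds in the study's methods, which do not name the test. CPM values are TMM-scaled. The fit was also run on simulated counts with the same spread setting for every gene, which does not cover the wide spread of Chac1. Each library was 1 mouse; the mice are numbered in the labels. Members and lists were chosen with earlier results of these data known. Named list genes were those called in any contrast and, per list, the 2 with the largest change in each diet contrast. DESeq2 1.42.0, limma 3.58.1 (voom, and log2(TPM + 1)), other filters and scaling, fewer groups, a replicate block, leaving out each mouse and a B cell covariate were alternatives. Promoter sequences were RefSeq's.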

Additional observations from a re-analysis of the deposited data

Results flagged for a closer look

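Chac1 ran in opposite directions with diet. Every TDD mouse lay below every CD mouse, though narrowly (0.518 against 0.619 CPM at the nearest), and every TDD+ABX mouse above every CD+ABX mouse. The difference of diet effects was 5.01 on the log2 scale. The gene was chosen with this pattern known, so this difference is a description: that it passed in the fit over all genes is no independent test of it.

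Of 40 sets of 5 mice (10 genes in 4 groups), 4 held a mouse that stood apart by Dixon's criterion, where chance alone gives about 1 in 20. Chac1 was at 1.87 CPM in CD+ABX mouse 5, and Atf4 was at 261 CPM in the same mouse. Phgdh was at 10.8 CPM in CD mouse 2, and Sesn2 was at 17.6 CPM in TDD+ABX mouse 3. Chac1 at 22.8 CPM in TDD+ABX mouse 3 was not among them, since the other mice of its group were spread as well.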

How the results depend on the processing

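Directions of the Chac1 differences held in every alternative run. Their size was smaller after adding 1 to each value, which shrinks low levels: for the diet in SPF mice, the diet in ABX-treated mice, TDD+ABX against TDD and the interaction, log2(CPM + 1) gave -0.67, 2.06, 2.54 and 2.73, and limma on log2(TPM + 1) gave -0.635, 2.01, 2.46 and 2.65. With each mouse left out in turn the last 3 ran from 2.51 to 3.65, 3.88 to 4.82 and 4.29 to 5.42, each lowest without TDD+ABX replicate 3.

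List genes called for diet in ABX-treated mice numbered 4, but 2 by limma-voom, 1 with a replicate block, 1 by limma on TPM, 2 with a B cell covariate (chosen after seeing the data) and 2 to 5 with a mouse left out. At q under 0.05 alone, 9 became 15 by DESeq2, 5 with a replicate block and 4 to 14 with a mouse left out. For diet in SPF mice, 2 called became 1 on TPM and 2 to 4 with a mouse left out. For CD+ABX against CD, 4 became 0 to 5, and for TDD+ABX against TDD, 26 at q under 0.05 became 42 by DESeq2 and 44 on TPM. For the interaction, 0 called became 1 on TPM and 0 to 1 with a mouse left out, and 0 at q under 0.05 became 6 by DESeq2, 1 on TPM and 0 to 2. Apart from effects of the added 1 and of fewer mice, the cause was not tested.

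Each library was 1 mouse, so mouse numbers mark no shared animal. Deviations of same-numbered mice had a median correlation of -0.031 (-0.417 to 0.289 over 30 pairs), against -0.003 (-0.502 to 0.488) over 120 other pairs. These values cannot show whether the numbers carry a shared cage or batch. The replicate block is therefore an alternative fit only. The low level of Chac1 in TDD mice limits its precision, with 9 to 25 counts in libraries of 37664356 to 58618713 counts. Mouse-to-mouse spread limits its precision in TDD+ABX.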
